A study of Mus musculus with 7 samples.

Results

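A panel of 10 genes that are raised in fetal liver, in liver cancer or in both was followed by name in a liver RNA sequencing table of 51826 genes. The panel held Afp, Gpc3, Ly6d, Golm1, Tff3, Bex1, Scd2, Akr1c18, Myc and Pkm, and each name matched a single row. They were chosen by name with the total counts of these same 7 libraries already known, so the values of the panel in the comparison of genotypes are given as a description and nothing is supported by a test of them. Livers came from 4 male C57BL/6J mice homozygous for the Sprtn Y118C knock-in allele (KI) and from 3 wild-type males of the same strain (WT). All 7 were taken at 6 months without treatment. The Sprtn protein clears other proteins that have become covalently stuck to DNA, and inherited loss of its function in people is known for early liver cancer. Whether any of these livers held a tumour is not stated in the labels, and the question was whether the transcripts of such genes were already higher in KI liver at this age.

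Oncofetal genes are active in the liver of the fetus, are switched off by hepatocytes around birth, and can return in hepatocellular carcinoma. Afp and Gpc3 are the textbook cases, Afp being a fetal relative of albumin measured in the blood of human patients and Gpc3 a glypican stained in their biopsies. Other members of the panel are not strictly fetal: Golm1 and Tff3 encode secreted or Golgi proteins reported as raised in tumours, Ly6d a small surface antigen, Scd2 and Akr1c18 enzymes of lipid and steroid metabolism, Myc a growth-promoting transcription factor, and Pkm the pyruvate kinase that adult hepatocytes largely replace with the product of Pklr.

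The sequences upstream of Afp and Gpc3 are shown because these are the textbook oncofetal genes of the panel, and the windows differ in base composition. RefSeq gives 250 bases before the annotated start of each on build GRCm38.p6, at chr5:90490464-90490713 on the plus strand for Afp and chrX:52613975-52614224 on the minus strand for Gpc3, and capitals mark a match to a searched motif.
Afp: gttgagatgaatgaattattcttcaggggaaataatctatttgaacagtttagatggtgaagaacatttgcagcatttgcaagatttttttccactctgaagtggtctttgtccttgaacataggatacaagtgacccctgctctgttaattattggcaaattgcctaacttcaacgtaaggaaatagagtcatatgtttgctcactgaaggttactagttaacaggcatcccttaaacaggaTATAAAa
Gpc3: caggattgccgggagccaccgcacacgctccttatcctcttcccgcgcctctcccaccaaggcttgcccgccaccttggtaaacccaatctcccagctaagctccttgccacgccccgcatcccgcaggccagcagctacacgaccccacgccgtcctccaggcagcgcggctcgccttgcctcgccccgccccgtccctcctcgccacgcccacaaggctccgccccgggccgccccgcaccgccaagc
The motifs searched on both strands were the TATA box as TATAAA and the E-box bound by Myc and Max as CACGTG. The Afp window held TATAAA, from 7 to 2 bases before the RefSeq start and from 30 to 25 bases before the start given in the deposited table. The Gpc3 window held neither motif, and its GC content was 71.6%, against 36% for Afp. Of the 32851 upstream windows in the same table, 12.4% held TATAAA and 6.02% CACGTG. A match is only a string of letters and says nothing of whether a factor is bound. The table held upstream sequence for 6 of the 10 genes.

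Total counts lay between 36928472 and 46755357 per library, and Sprtn itself was present in every library, at 11.3 ± 0.946 CPM in KI (SD, n = 4) and 10 ± 1.11 CPM in WT (SD, n = 3). CPM here are counts divided by library size after TMM scaling between libraries, in the usual unit of that name. WT replicate 1 stood apart from the other WT libraries. On the leading principal component, with 29.5% of the variance in log2 CPM, it lay at 9.56, inside the KI range of 7.95 to 26.4, while the other WT libraries lay at -32.5 and -36.0. Of the 8 panel genes that passed the expression filter, WT replicate 1 was the lowest WT library for 5 and the highest for 2. With n = 3 any WT library is often at an end, so this count alone does not set it apart. Because of its place on the component, each gene's value without it is given beside its range over all single libraries left out. Skeletal muscle transcripts were high in KI replicate 1, with a summed 76.5 CPM over the 8 muscle markers, against 0.472 to 0.847 CPM in the other KI libraries and 0.595 to 1.20 CPM in WT. The tissue label fitted the data, since the 10 hepatocyte markers summed to between 74180 and 90430 CPM in KI and between 84070 and 98550 CPM in WT. Sums of other cell markers differed between the genotypes. The 10 periportal hepatocyte markers summed to 7061 to 9576 CPM in KI and 10200 to 13450 CPM in WT. Of these 10, 5 had every KI library below WT and the rest overlapped, where 10.9% of all genes tested did not overlap. The edgeR fit called 0 of them. The sums stay apart only with Pck1 included, which itself overlapped, with 1345 to 3157 CPM in KI and 3637, 3632 and 1014 CPM in WT. The 9 Kupffer cell markers summed to 210 to 267 CPM in KI and 278 to 382 CPM in WT. No marker of either list was at 0 throughout. The part of these cells in the results was not tested.

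Afp and Gpc3 were detected at low levels in both genotypes, and KI and WT libraries overlapped. Ly6d had a mean 3.35 times as high in KI as in WT, with no overlap between libraries, where 10.9% of all genes tested had none. For Tff3, Scd2, Golm1 and Myc the groups overlapped and the WT animals were widely spread. Pkm differed least between the genotype means.

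Per unit of transcript length, the panel ran from abundant to barely detected transcripts. On the deposited TPM scale, which divides by gene length, Tff3 was highest with a mean of 56.1 TPM over all 7 libraries, followed by Pkm at 7.31, Myc at 4.50, Ly6d at 2.97, Scd2 at 2.08 and Golm1 at 1.72 TPM. Afp followed at 0.724 and Gpc3 at 0.341 TPM, and Akr1c18 at 0.127 and Bex1 at 0.125 TPM closed the order. Within the genotypes the middle of this order differed: Golm1 averaged 1.98 and Scd2 1.66 TPM in KI, while in WT Scd2 averaged 2.65, Golm1 1.38 and Ly6d 1.28 TPM. Of the 9 neighbouring pairs in the pooled order, 8 had ranges that overlapped between libraries, and the pair that did not was Pkm, from 6.55 to 8.09 TPM, above Myc, from 1.65 to 6.35 TPM. Among the genes with at least 1 count, 93.0% had a mean TPM below that of Tff3, 45.3% below that of Afp and 39.0% below that of Gpc3.

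**Figure D1:**
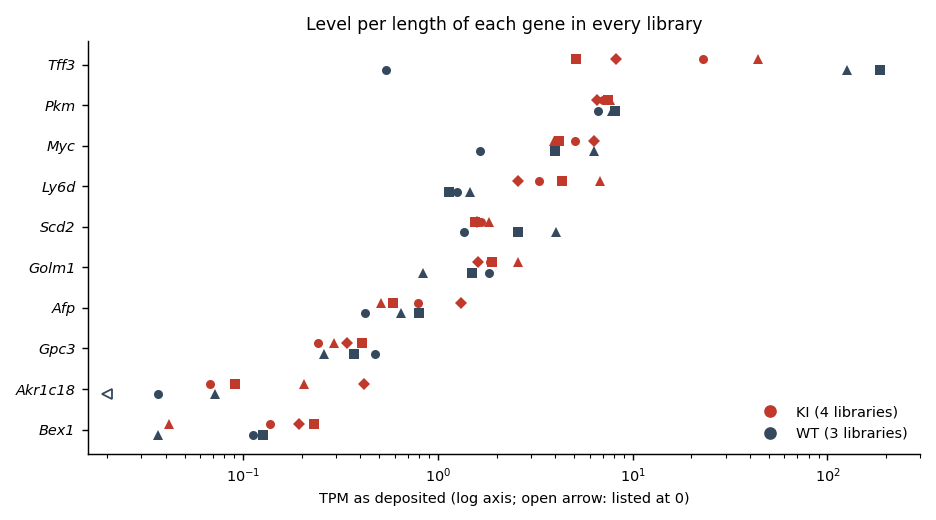
Deposited TPM of each panel gene in every library on a log axis, KI in red above WT in dark blue, with marker shapes for replicates 1 to 4 as circle, square, triangle and diamond. Tff3 spreads from 0.539 to 185 TPM, while Pkm stays between 6.55 and 8.09 TPM.

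For Afp, Gpc3, Scd2, Pkm and Akr1c18, a relative chosen after its values were seen was far more abundant in both genotypes. Not all relatives were: Scd3 had at most 3 counts in any library and Gpc2 at most 9. Alb, the adult counterpart of Afp, averaged 39210 ± 7421 TPM in KI and 44340 ± 4385 TPM in WT (SD, n = 4 and 3), about 48980 and 71270 times the Afp mean. Gpc4, another glypican, averaged 36.2 ± 1.71 TPM in KI and 36.5 ± 3.04 TPM in WT, 113 and 98.9 times Gpc3. Scd1, the adult liver desaturase, was 912 times as high as Scd2 in KI and 862 times in WT. Pklr, the liver form of pyruvate kinase, averaged 229.7 ± 95.3 TPM in KI and 102.5 ± 30.1 TPM in WT, 32.1 and 13.6 times Pkm. Akr1c6, an abundant liver member of the same steroid dehydrogenase family, averaged 1034 ± 122 TPM in KI and 895 ± 180 TPM in WT.

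Among secreted and surface oncofetal markers, Afp was detected in every animal at a very low level. Afp (ENSMUSG00000054932, mm10 chromosome 5, 90490737 to 90508907, plus strand) had 65, 36, 35 and 97 counts in the KI libraries and 32, 54 and 50 counts in the WT libraries. That is 1.43, 0.944, 0.887 and 2.28 CPM in KI and 0.762, 1.35 and 1.04 CPM in WT. KI replicate 4 was the highest library, yet KI replicates 2 and 3 lay below the WT libraries 2 and 3, so the groups overlapped. The log2 difference of KI minus WT was 0.41 with a standard error (SE) of 0.37, a size close to its own error. It was 0.23 without WT replicate 1, and over all single libraries left out it ran between 0.06, without KI replicate 4, and 0.62, without WT replicate 2. In bulk tissue fewer cells of a type and less RNA per cell cannot be told apart, for this and the other genes.

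Gpc3, a heparan sulfate proteoglycan held on the cell surface by a lipid anchor (ENSMUSG00000055653, chromosome X, 52272426 to 52613950, minus strand), had 16, 20, 16 and 20 counts in KI and 29, 20 and 16 counts in WT. The groups overlapped fully, with WT replicate 1 the highest library. Its log2 difference was -0.21 (SE 0.33), smaller than its own error. It ran between -0.44, without WT replicate 3, and 0.08, without WT replicate 1.

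Golm1, a Golgi membrane glycoprotein measured in human serum (ENSMUSG00000021556, chromosome 13, 59634996 to 59675784, minus strand), had 3.69, 3.36, 4.89 and 3.06 CPM in KI and 3.62, 2.75 and 1.48 CPM in WT. WT replicate 1 lay among the KI libraries, and the other WT libraries lay below all of them. The log2 difference was 0.52 (SE 0.30). Leaving out single libraries moved it both ways, to 0.84 without WT replicate 1, to 0.37 without KI replicate 3 and to 0.24 without WT replicate 3. Of the exonic bases of Golm1, 29.3% overlap Naa35 on the opposite strand, and reads of the pair cannot be separated here, so its counts are uncertain.

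Tff3, a small secreted peptide that protects mucosal surfaces (ENSMUSG00000024029, chromosome 17, 31125306 to 31129646, minus strand), was the most variable gene of the panel. It had 279, 46, 439 and 88 counts in KI and 6, 1827 and 1436 counts in WT. On the CPM scale this was 6.16, 1.21, 11.1 and 2.07 in KI and 0.143, 45.6 and 29.9 in WT. WT replicate 1 was below every KI library and the other WT libraries were above all of them, a 319-fold range within WT. The standard deviation of its log2 CPM was larger than that of 99.99% of tested genes within WT and of 99.6% within KI. The log2 difference was -2.29 (SE 1.15) in edgeR and -0.74 in limma-voom. In edgeR it was -2.87 without WT replicate 1, and ran between -2.98, without KI replicate 3, and -1.55, without WT replicate 2. Where Tff3 was low among the WT libraries, the 10 pericentral hepatocyte markers were high, summing to 11410 CPM in replicate 1 against 6224 and 6309 CPM in replicates 2 and 3, with 9741 to 11060 CPM in KI and no marker at 0 throughout, and their part in the spread of Tff3 was not tested. Markers of goblet and intestinal epithelium, where Tff3 is abundant, summed to between 0.0787 and 0.431 CPM in KI and between 0.167 and 0.399 CPM in WT, near 0 in all 7 libraries.

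**Figure D2:**
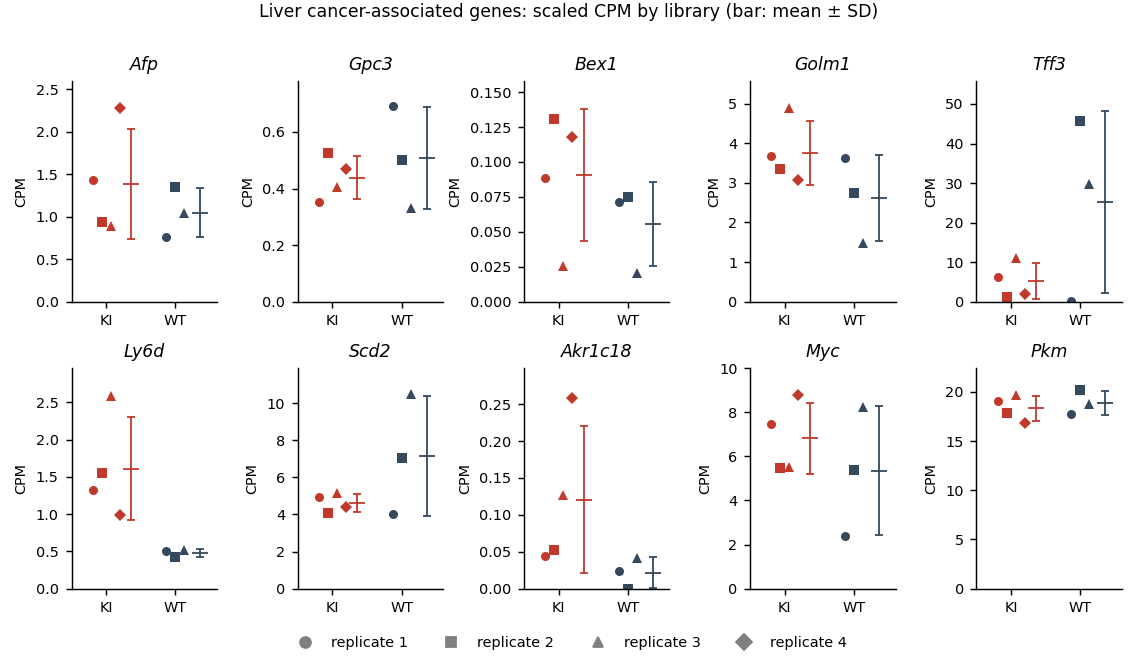
Scaled CPM of the 10 genes by library, KI left of WT, on linear axes from 0, with a bar for the mean and SD of each group. Ly6d and the near-absent Akr1c18 are the only panels without overlap, where 10.9% of all genes tested did not overlap. The WT libraries of Tff3 run from 0.143 to 45.6 CPM.

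Ly6d, a small lipid-anchored antigen of the Ly6 family known from early B lineage cells and squamous epithelium in mice (ENSMUSG00000034634, chromosome 15, 74762056 to 74763620, minus strand), was higher in every KI library. It had 60, 59, 102 and 42 counts in KI and 21, 17 and 25 counts in WT. Scaled, it had 1.32, 1.55, 2.59 and 0.989 CPM in KI, mean 1.61 ± 0.689, and 0.500, 0.424 and 0.520 CPM in WT, mean 0.481 ± 0.0504 (SD, n = 4 and 3). The lowest KI library, replicate 4, was above the highest WT library, replicate 3, and the KI animals were spread over a 2.62-fold range while the WT animals were close together. The log2 difference was 1.73 (SE 0.36). It was 1.76 without WT replicate 1 and 1.41 to 1.91 over all single libraries left out. No exon of Ly6d overlaps another annotated gene, and 0 of its 695 stretches of 50 bases occur in the transcripts of another gene in GENCODE release M21.

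Markers of the cell types that usually carry Ly6d were examined beside it. The 10 B and plasma cell markers summed to between 18.0 and 23.4 CPM in KI and between 15.3 and 18.5 CPM in WT, which overlapped. Most of this sum was Ighm and Igkc. Of the 9 tested, 7 had positive log2 differences, and 1, Ighm, had every KI library above WT, where 5.48% of all genes tested did. Vpreb3, a marker of early B lineage cells, had 6, 5, 3 and 0 counts in KI and 6, 2 and 2 counts in WT. Ms4a1, a marker of mature B cells, had 28, 15, 40 and 36 counts in KI and 27, 29 and 35 counts in WT. The 7 plasmacytoid dendritic cell markers summed to between 21 and 24.7 CPM in KI and between 19.5 and 21.4 CPM in WT, most of it Tcf4 and Irf8. Of the 5 tested, 3 had positive and 2 negative log2 differences, with a median of 0.08. Siglech, the defining one, had 12, 13, 31 and 20 counts in KI and 3, 6 and 11 counts in WT. Its log2 difference was 1.59, and the other tested markers, from -0.06 for Spib to 0.12 for Tcf4, did not follow it. KI replicate 3, the highest for Ly6d, was also the highest for Ms4a1 and Siglech. The part of these lymphoid cells in the level of Ly6d was not tested. Squamous markers summed to between 0.393 and 0.706 CPM in KI and between 0.374 and 0.643 CPM in WT, with Krt5 and Krt15 at 0 in all 7 libraries.

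Bex1, a small X-linked protein best known from brain (ENSMUSG00000050071, chromosome X, 136213972 to 136215513, minus strand), had 4, 5, 1 and 5 counts in KI and 3, 3 and 1 counts in WT and did not pass the expression filter. The groups overlapped. The ratio of summed counts was 1.69 with an exact 95% interval from 0.647 to 4.89, which covers counting error only, as do the other intervals. Of its 50-base stretches 30.9% recur in other genes, mainly Bex4 and the overlapping Tceal7, so even these few counts are uncertain.

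Among the enzymes, Scd2, a desaturase that makes monounsaturated fatty acids and is prominent in the liver of newborn mice (ENSMUSG00000025203, chromosome 19, 44293676 to 44306864, plus strand), had 4.92, 4.06, 5.14 and 4.43 CPM in KI and 4.00, 7.01 and 10.5 CPM in WT. The KI libraries lay close together and WT replicate 1 lay just below them, with the other WT libraries above. The log2 difference was -0.63 (SE 0.28). It ran between -0.92, without WT replicate 1, and -0.25, without WT replicate 3, the library with 10.5 CPM. Scd1, which outnumbered it by far, had a log2 difference of -0.54 (SE 0.49). Of the 50-base stretches of Scd2, 3.97% recur in other genes, most of them in Scd1.

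Akr1c18, a dehydrogenase that inactivates progesterone (ENSMUSG00000021214, chromosome 13, 4132615 to 4150654, minus strand), had 2, 2, 5 and 11 counts in KI and 1, 0 and 2 counts in WT and did not pass the filter. On the CPM scale the lowest KI library, at 0.0441, stood barely above the highest WT library, at 0.0416. Summed counts were 20 in KI and 3 in WT, a scaled ratio of 5.25 with an exact 95% interval from 1.56 to 27.6. KI replicate 4 gave 11 of the 20 KI counts.

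Pkm, the glycolytic enzyme whose M2 form is used by fetal tissue and tumours (ENSMUSG00000032294, chromosome 9, 59656368 to 59679375, plus strand), had 19.04, 17.8, 19.6 and 16.8 CPM in KI and 17.8, 20.2 and 18.8 CPM in WT. The groups overlapped and the log2 difference was -0.05 (SE 0.09). It was -0.06 without KI replicate 1, the library with muscle RNA, a tissue that uses the M1 form, and ran between -0.09, without WT replicate 1, and 0.004, without WT replicate 2. Gene counts do not separate M1 from M2, and 25.8% of the 50-base stretches of Pkm recur in other annotated genes. The largest share is with Gm49759, an entry that lies over 15.3% of the exonic bases of Pkm on the same strand, so its counts are uncertain.

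Myc, a transcription factor that drives growth and ribosome production (ENSMUSG00000022346, chromosome 15, 61985391 to 61990374, plus strand) had 7.48, 5.48, 5.52 and 8.78 CPM in KI and 2.41, 5.39 and 8.25 CPM in WT. WT replicate 1 was the lowest library and WT replicate 3 was above all but the highest KI library. The log2 difference was 0.35 (SE 0.36), and it was -0.0026 without WT replicate 1 and 0.81 without WT replicate 3. The difference was smaller than the spread between WT animals.

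Across the panel, 8 of 10 genes passed the filter, 4 with positive and 4 with negative log2 differences. Their median was 0.15, against 0.0007 over all 13989 genes tested. The edgeR quasi-likelihood fit called 0 of the 8 genes at an adjusted p under 0.05, where it called 0.0357% of all genes. At an unadjusted p under 0.05 it held 1 gene, Ly6d, where 10.6% of all genes passed. DESeq2 called 1 of the 8, again Ly6d, with 1.36% of all genes called, limma-voom called 0 with 0.05% called, and the authors' deposited table held 1, Ly6d, with a log2 fold change of 1.73 and a corrected p under 0.05, with 0.633% of its genes there. Groups did not overlap for 1 of the 8 tested genes and for 2 of all 10, where 10.9% of tested genes did not overlap. These counts describe genes picked with these values known, so nothing is read from them. Over all genes edgeR called 5, and it called 98 (0.691%) without WT replicate 1 and 3 without KI replicate 1 or without KI replicate 4, and in each of these fits 0 panel genes were called.

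**Figure D3:**
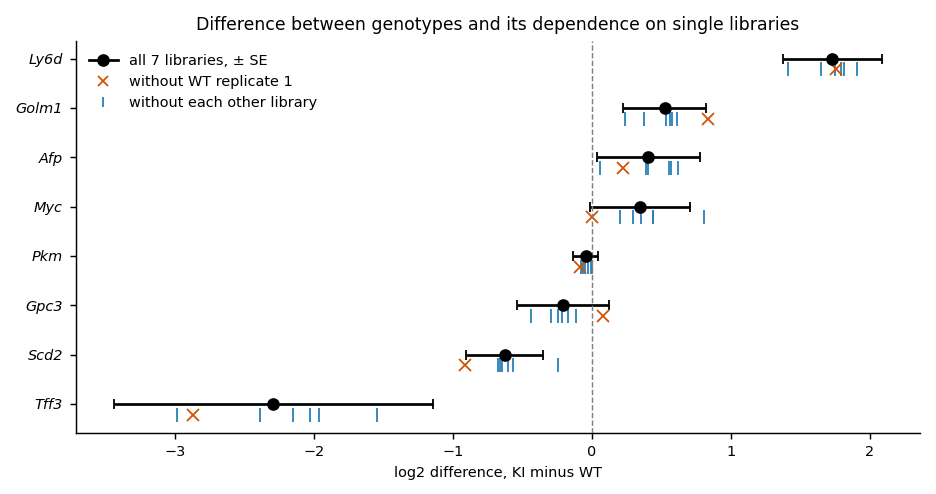
Log2 difference of KI minus WT for the 8 panel genes that passed the filter, with all libraries (black point, bar of 1 SE), without WT replicate 1 (orange cross) and without each other library (blue ticks). Ly6d lies between 1.41 and 1.91 whichever library is left out, while Myc and Gpc3 move to -0.0026 and 0.08 without WT replicate 1.

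Among the 5 genes that followed Ly6d most closely over the 7 libraries were Gdf10, Abl2, Cyp4a12a and Armcx4, with Pearson r of log2 CPM of 0.990, 0.990, 0.987 and 0.980 among the 11793 genes compared. All points share the same 7 libraries, their scaling and the genotype split, and no p is given. Gdf10, a growth factor of the transforming growth factor beta family, had 5.27, 5.66, 6.69 and 5.01 CPM in KI and 3.98, 3.42 and 3.93 CPM in WT. Cyp4a12a, a male-biased fatty acid hydroxylase with near-identical copies that make its counts uncertain, averaged 307 ± 42.2 CPM in KI and 179 ± 3.72 CPM in WT. Abl2, a tyrosine kinase, averaged 10.1 ± 0.455 CPM in KI and 9.04 ± 0.196 CPM in WT, and Armcx4 averaged 2.05 ± 0.487 CPM in KI and 1.19 ± 0.147 CPM in WT. In these 4 genes KI replicate 3 was the highest library, and the correlation without any single library stayed at 0.964 or above. They were picked for their likeness to Ly6d, so this shared order largely follows from that choice.

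**Figure D4:**
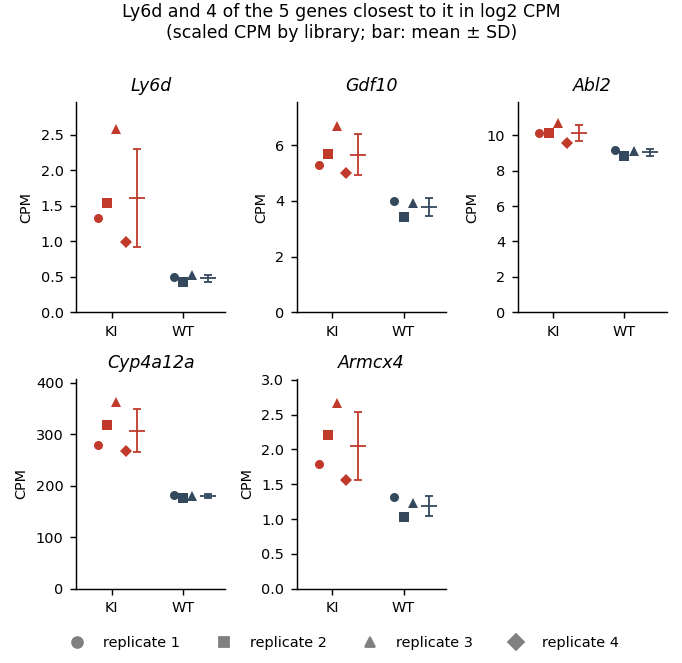
Scaled CPM by library of Ly6d and 4 of the 5 genes closest to it, KI left of WT, with a bar for the mean and SD. Each panel has all 4 KI libraries above all 3 WT libraries, and KI replicate 3 (triangle) on top, an order that picking the closest genes favours.

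Afp followed other genes, which overlapped between genotypes as it did. Closest were Krt18, a keratin of hepatocytes, with r of 0.966, Maged2 with 0.955, Lig1, the replicative DNA ligase, with 0.942, Dcaf4 with 0.926 and Harbi1 with 0.924. Krt18 averaged 118 ± 20.03 CPM in KI and 109 ± 17.5 CPM in WT, with KI replicate 4 on top as for Afp. These genes too were picked for their likeness. Without KI replicate 4 the correlation fell to 0.923 for Krt18 and 0.771 for Harbi1.

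A wider list of fetal liver growth genes was examined in the same way. Of 19 genes listed, 10 were tested, 9 had at most 10 counts in every library, and Lin28a, a fetal RNA-binding regulator, was at 0 throughout. The edgeR fit called 0 of the 10, and DESeq2 and limma-voom called 0. At an unadjusted p under 0.05 edgeR held 1 higher and 1 lower, where 10.6% of all genes passed. The median log2 difference was -0.13. Peg10, an imprinted gene of placenta and fetal liver, had 32, 37, 45 and 39 counts in KI and 34, 164 and 119 counts in WT. Its log2 difference was -1.40 (SE 0.46, edgeR adjusted p = 0.352), and it was -1.81 without WT replicate 1 and -0.82 without WT replicate 2 (edgeR adjusted p = 0.0391 and 0.862, the range over all single libraries left out). Igf2bp2, an RNA-binding protein of fetal growth, had a log2 difference of 0.96 (SE 0.41, edgeR adjusted p = 0.46), and the cell cycle inhibitor Cdkn1c -0.43 (SE 0.24, edgeR adjusted p = 0.535). Cdkn1c shares 30.7% of its exonic bases with the antisense Gm44732, so its counts are uncertain. H19, the fetal imprinted RNA often followed with Afp and chosen here after its values were seen, had 126, 21, 39 and 21 counts in KI and 2, 27 and 42 counts in WT, which overlapped. Its log2 difference was 1.17 (SE 0.82), and it ran between 0.34, without KI replicate 1, and 1.76, without WT replicate 3.

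Among secreted and surface liver cancer markers, 4 of the 19 tested had every KI library above every WT library, Lcn2 and Spp1 among them. Over all genes tested this held for 5.48%. Of 22 listed genes 19 were tested and 13 had positive log2 differences. The edgeR fit and limma-voom called 0, and DESeq2 called 2 higher, where it called 1.36% of all genes. At an unadjusted p under 0.05 edgeR held 6 higher and 0 lower, where 10.6% of all genes passed. The median log2 difference was 0.11, against 0.0007 over all genes tested. Lcn2, the iron-binding lipocalin released in injury and inflammation, had 23.7, 23.9, 9.18 and 8.59 CPM in KI and 3.17, 5.72 and 5.59 CPM in WT. All KI libraries were above all WT libraries, with KI replicates 1 and 2 well above replicates 3 and 4, and the log2 difference was 1.76 (SE 0.43, edgeR adjusted p = 0.257, DESeq2 adjusted p = 0.0015). Spp1, which encodes the secreted matrix protein osteopontin, averaged 40.2 ± 6.84 CPM in KI and 23.3 ± 5.67 CPM in WT, a log2 difference of 0.78 (SE 0.18, edgeR adjusted p = 0.257, DESeq2 adjusted p = 0.00901). Gm42793 lies over 18.8% of the exonic bases of Spp1, on its strand, so its counts are uncertain. The 8 bile duct markers, Spp1 among them, summed to between 50.2 and 69.9 CPM in KI and between 35.2 and 51.4 CPM in WT with none at 0 throughout. Most of this sum was Spp1 itself, with 34.4 to 48.8 CPM in KI and 18.7 to 29.7 CPM in WT. The sum is therefore no separate measure of these cells, and among the other markers only Muc1 had no overlap between genotypes. The 7 neutrophil markers summed to between 3.44 and 8.78 CPM in KI and between 3.24 and 6.79 CPM in WT. The part of these cells in Lcn2 and Spp1 was not tested. Plvap, a protein of the windows of capillary endothelium, had a log2 difference of 0.28 (SE 0.11, edgeR adjusted p = 0.403).

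Regulators of Afp were examined next. The edgeR fit, DESeq2 and limma-voom called 0 of the 12 genes, and the median log2 difference was 0.03. In edgeR 0 had an unadjusted p under 0.05, where 10.6% of all genes did. Zfhx3, a repressor of Afp, had 0.28 (SE 0.17) and Foxa3, a pioneer factor of hepatocyte genes, -0.37 (SE 0.23, edgeR adjusted p = 0.584 for both).

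Partners and targets of Myc had differences of both signs. Of 24 listed genes 23 were tested, 13 with positive and 10 with negative log2 differences, and edgeR, DESeq2 and limma-voom called 0. At an unadjusted p under 0.05 edgeR held 1 higher and 1 lower, where 10.6% of all genes passed. Cad, the enzyme that starts pyrimidine synthesis, averaged 11.4 ± 0.865 CPM in KI and 8.10 ± 1.66 CPM in WT, and Npm1, a nucleolar chaperone, averaged 99.4 ± 2.42 CPM in KI and 116 ± 8.65 CPM in WT (edgeR adjusted p = 0.337 and 0.364). Both are Myc targets, and they stood on opposite sides of WT with no overlap, where 10.9% of all genes tested did not overlap. Mycl, a relative of Myc, had a log2 difference of 0.46 (SE 0.23, edgeR adjusted p = 0.516).

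In glycolysis, Pklr, which acts at the last step, and Slc2a1, which brings glucose into cells, had differences of opposite sign. The edgeR fit and limma-voom called 0 of 25 genes, and DESeq2 called 1 higher, where it called 1.36% of all genes. At an unadjusted p under 0.05 edgeR held 1 higher and 3 lower, where 10.6% of all genes passed. Pklr had 173, 379, 416 and 543 CPM in KI and 226.5, 114 and 166 CPM in WT, where KI replicate 1 lay below WT replicate 1. Its log2 difference was 1.16 (SE 0.37, edgeR adjusted p = 0.346, DESeq2 adjusted p = 0.0367), and 22% of its exonic bases overlap Hcn3 on the opposite strand. Slc2a1, the glucose transporter that tumours often raise, had -0.52 (SE 0.17, edgeR adjusted p = 0.356).

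Proliferation genes were examined because tumours divide and resting hepatocytes rarely do. Of 19 listed genes 17 were tested, 11 with positive log2 differences and a median of 0.22, and edgeR, DESeq2 and limma-voom called 0. At an unadjusted p under 0.05 edgeR held 1 higher and 0 lower, where 10.6% of all genes passed. The replication helicase subunit Mcm2 averaged 3.98 ± 1.03 CPM in KI and 2.87 ± 0.290 CPM in WT (edgeR adjusted p = 0.472), with 5.51 CPM in KI replicate 2 and at most 3.60 CPM in the other KI libraries. Its relative Mcm5 had a log2 difference of 0.33 (SE 0.20, edgeR adjusted p = 0.579), and Ccnd1, cyclin D1, 0.47 (SE 0.21, edgeR adjusted p = 0.473), with 23.4% of its exonic bases shared with a gene on the opposite strand. Mki67, a marker of dividing cells chosen after its values were seen, had 85, 71, 41 and 37 counts in KI and 35, 46 and 52 counts in WT, which overlapped.

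Among relatives of the panel genes, 2 of the 20 tested had every KI library above WT, where 5.48% of all genes tested did. They were Ly6a and Lynx1, further Ly6 family members. Of 33 listed relatives 32 were in the table and 20 were tested. The edgeR fit and limma-voom called 0, and DESeq2 called 1 higher, where it called 1.36% of all genes. At an unadjusted p under 0.05 edgeR held 2 higher and 0 lower, where 10.6% of all genes passed. Ly6a, the stem cell antigen Sca-1, which interferon induces, had 11.5, 8.31, 14.9 and 9.16 CPM in KI and 6.62, 4.02 and 4.72 CPM in WT. No KI library overlapped WT, the highest was again KI replicate 3, and the log2 difference was 1.1 (SE 0.24, edgeR adjusted p = 0.236, DESeq2 adjusted p = 0.00298). Gpc1, a glypican, had a log2 difference of 1.19 (SE 0.49, edgeR adjusted p = 0.442), with WT replicate 1 inside the KI range and 18.9% of its exonic bases shared with Ankmy1 on the opposite strand. It was 2.00 without WT replicate 1 (edgeR adjusted p = 0.0698) and 0.85 without KI replicate 2, with adjusted p of 0.0698 to 0.874 over all single libraries left out in edgeR. Afm, a relative of Afp and Alb, had -0.19 (SE 0.10, edgeR adjusted p = 0.531). Ly6e, a widely expressed Ly6 gene, had a log2 difference of 0.15 (SE 0.30), and the mucosal peptides Tff1 and Tff2 had at most 3 counts in any library.

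**Figure D5:**
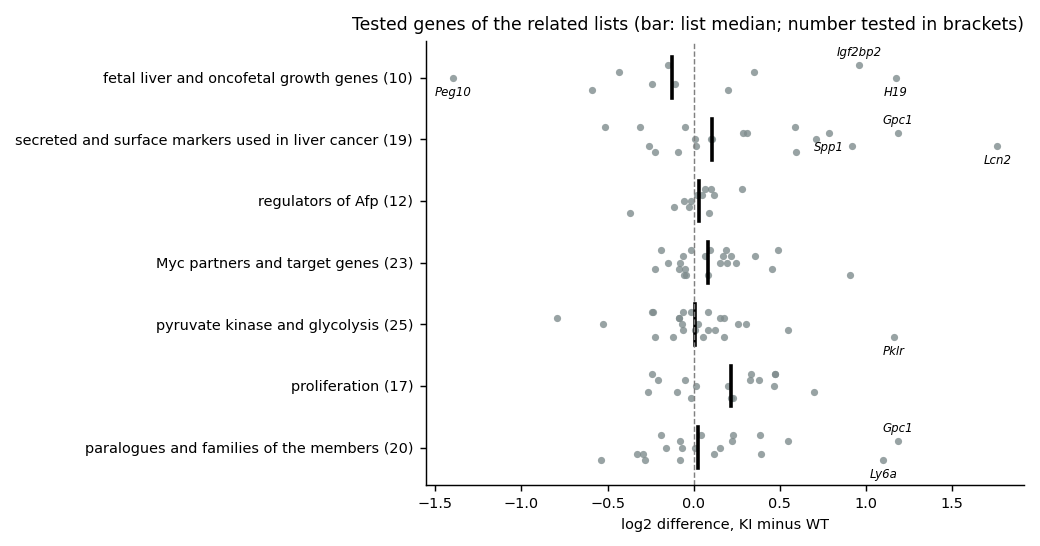
Log2 difference of KI minus WT of every tested gene (grey points) in the 7 related lists, with the list median as a black bar and those beyond 0.75 in size that the text describes named. Medians lie between -0.13 and 0.22, and Lcn2, at 1.76, and Peg10, at -1.40, are among the genes named.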

How the data were processed

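RNA from 7 livers was enriched for polyadenylated transcripts and sequenced, per the labels. The authors deposited total counts per gene, raw and whole, on build mm10 per the submitters' processing notes. They also deposited TPM values, which scale counts by gene length and library, and their own log2 fold change and corrected p-value, per the file headers. The mapper, the counter and the annotation were not given in the sources used here, and 14 RPKM and CPM columns were left aside.

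Groups came from the labels, and p-values measure only the spread between these libraries, which were taken as 1 animal each. Counts were fitted for all genes with edgeR 4.0.16 in R 4.3.3, using TMM scaling, the default expression filter, the quasi-likelihood F test with genotype as the only term, and Benjamini-Hochberg adjustment over 13989 genes. Genes were called at an adjusted p under 0.05. The second strand was made with ordinary nucleotides per the labels' protocols, so reads of genes on opposite strands were treated as not separable. Members and lists were chosen with earlier results of these data known. Named genes were the 10 members, Sprtn, the 3 genes with the smallest p in each related list, and the 5 genes with the highest correlation of log2 CPM (prior count 2, mean CPM of at least 1) with Ly6d and with Afp. Named after their values were seen were H19, Mki67, Scd1, Ly6e, Lin28a, Tff1 and Tff2, the single cell type markers, and the relatives compared on the TPM scale. Shared 50-base stretches and exon overlaps were taken from GENCODE release M21, where 8 of 10 members had the same position and strand. Of the related genes, 1 listed symbol was not matched. Some genes that these rules name are not reported here.

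Alternatives were DESeq2 1.42.0, limma-voom (limma 3.58.1), RLE and upper-quartile scaling, no filter, a stricter filter (3 or more libraries at CPM 1 or above), robust dispersion estimates, a replicate block and leaving out each library. The fits were tested on simulated data. Figures used matplotlib 3.10.9.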

Additional observations from a re-analysis of the deposited data

Results flagged for a closer look

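Among the KI libraries, 38 named genes were examined for a single library far from the other 3, and 2 genes had one. Chance alone gives about 1 in 20 such groups. Mcm2 had 5.51 CPM in KI replicate 2, against 3.35 to 3.60 CPM in the others. Cdkn1c had 1.89 CPM in KI replicate 2, against 1.08 to 1.17 CPM in the others, and WT lay between 1.68 and 1.97 CPM. No panel gene had such a library.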

How the results depend on the processing

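Of 119 log2 differences of panel genes under 15 alternatives, 3 small ones changed sign. They were Gpc3 (0.08) and Myc (-0.0026) without WT replicate 1, and Pkm (0.004) without WT replicate 2. All 119 moved by less than the spread between replicates, taken as the pooled SD of log2 CPM within genotypes. Leaving out 1 library can hardly move a difference by more than that, so this count does not show that the values are stable. Calls over all genes numbered 5 in the fit reported, 208 with DESeq2, 18 with no filter, 1 with the replicate block and 3 to 98 when each library was left out. Of the panel, DESeq2 called 1 gene, and the other alternatives called 0. Of the lists, DESeq2 called 2 genes among secreted and surface markers, 1 in glycolysis and 1 among relatives, and the fetal growth list had 0 to 1 called when each library was left out. The Tff3 difference of -2.29 was -0.74 with limma-voom and -1.25 with the replicate block. The cause of these changes was not tested. Same-numbered libraries did not deviate together (correlations of -0.061, 0.005 and -0.019), and 0 of 3 WT libraries correlated best with its own number, so the block has no basis beyond a shared number. Low counts limit Afp, Gpc3, Bex1, Akr1c18 and also Ly6d, which had 21, 17 and 25 counts in WT.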
